A study of Mus musculus with 12 samples.

Results

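The polyamine genes described here are 8 genes picked by name from the 20504 genes in the table of counts on coding sequence (CDS). The rule used no measured value, though earlier results of these data were known when these genes were chosen. They are Oaz1 and Oaz2 (antizymes), Azin1 (antizyme inhibitor), Odc1 (ornithine decarboxylase), Amd1 (S-adenosylmethionine decarboxylase), Srm (spermidine synthase), Sms (spermine synthase) and Sat1 (spermidine/spermine acetyltransferase). Of these, 7 had enough counts to be tested, and Amd1 was listed at 0 in all 12 libraries.

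Polyamines are small positively charged molecules that bind RNA and, in neurons, modulate ion channels and glutamate receptors. Odc1 makes putrescine from ornithine, Amd1 supplies the aminopropyl groups that Srm and Sms add to make spermidine and spermine, and Sat1 acetylates these products for breakdown and export. The pathway is known for feedback during translation. Antizyme synthesis needs ribosomes to shift reading frame, a step that polyamines promote, and antizyme then sends ornithine decarboxylase to the proteasome unless the antizyme inhibitor binds it first. Upstream open reading frames (uORFs), short frames in the 5′ leader, control translation of the Amd1 and Azin1 messages.

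The libraries came from 6 adult Camk2a-RiboTag mice, 3 months old, in which a Camk2a promoter drives Cre recombinase in principal excitatory neurons of the forebrain, so that the ribosomal protein Rpl22 carries an HA tag in those cells. Mice A and B were controls, labelled untreated and described in the methods as given vehicle (captisol), and mice C and D received 1 dose of AZD-8055, an inhibitor of the kinase mTOR, at 100 mg/kg by oral gavage 1 h before collection of the right frontal lobe. Each of these 4 mice gave a poly(A) RNA-Seq library and a library of ribosome footprints, both from the whole lysate and therefore from all of its cell types. Mice E and F, labelled untreated, each gave RNA-Seq of the lysate (input) and of polysomes immunoprecipitated through the HA tag (IP).

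Totals on CDS ran from 9395385 to 10649939 in RNA-Seq of mice A to D, from 3503873 to 9259938 in footprints, from 12580397 to 15585831 in input and from 9309496 to 9975629 in IP. As a check of the drug, TE (translation efficiency, footprints over RNA-Seq) fell after AZD-8055 in 68 of 74 ribosomal protein genes tested, with a median change of −0.91 on the log2 scale. No gene on the marker lists of 7 brain cell types was at 0 in input or IP. In tissue of mixed cell types, fewer cells of a type and less RNA per cell cannot be told apart.

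In the reference annotation (RefSeq, build GRCm38, the mm10 of the submitters' processing notes) Oaz1 lies at chr10:80826656-80829290, Oaz2 at chr9:65676548-65690300 and Azin1 at chr15:38487430-38519294. Among the enzymes of synthesis, Odc1 lies at chr12:17544808-17551502, Amd1 at chr10:40287458-40302188, Srm at chr4:148591513-148594619 and Sms at chrX:157443851-157492287. Sat1, the catabolic enzyme, lies at chrX:155213126-155216449.

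Transcript starts were read from a reference set of promoter windows with entries for 6 of the 8 genes and none for Azin1 or Srm. They were read because mTOR acts on messages that begin with a pyrimidine tract and because uORFs lie in the stretch that follows. The first 30 bases from the start held in that set for the 4 genes with the lowest TE follow on the coding strand. They are in lower case because no stretch is marked in them. None holds an ATG or a pyrimidine tract at the first base.
Oaz1, chr10:80826656-80826685, plus strand: aaaagtgggcgtcggcgccggcgccatttt
Sat1, chrX:155216420-155216449, minus strand: tgcttcggcgggctttcatccttactggtc
Odc1, chr12:17544873-17544902, plus strand: gcctcccggccggaaccgatcgcggctggt
Oaz2, chr9:65676548-65676577, plus strand: ggcggttgcgcggcggcggccggggagggt
A start with C at the first base followed by at least 4 bases, each C or T, was absent from the 7 starts of these 6 genes. It was present in 2.51% of 32851 windows in the reference, in 2.24% of windows of genes in the CDS table and in 17.8% of 73 windows of ribosomal protein genes. Most ribosomal protein windows lacked it too, so its absence cannot show that these messages begin without a pyrimidine tract. A complete frame from ATG to an in-frame stop within the first 50 bases was found in 1 of the 6 genes, Amd1. Such a frame was present in 11.7% of all windows and in 8.02% of windows of genes in the CDS table. The Amd1 frame is 21 bases long with 6 codons before its stop, and its start codon and stop codon are in capitals.
Amd1, chr10:40302155-40302175, minus strand: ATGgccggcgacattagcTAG
It begins at base 14 of the transcript. The gene interval of Odc1 given above begins upstream of the start shown, and that stretch was not examined. Sms had 2 ATG triplets in its first 50 bases and no complete frame there, and a longer leader was not searched.

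This uORF has no translation value beside it, since Amd1 had 0 counts on CDS in all 12 libraries and 0 counts on exons in the 8 RNA-Seq libraries. At these depths 3 counts would be 0.193 to 0.856 in every 1000000 CDS counts, which covers counting error only. Amd2, a near-identical copy at chr10:35708691-35711891, was also at 0 in both tables, among 993 genes of the CDS table at 0 in all 12 libraries. The reads were counted where they mapped uniquely, and reads that fit both copies would be in neither count. Whether that accounts for the 0 was not tested. The exon table listed Oaz1 at 0 in all 8 RNA-Seq libraries, although the CDS table held 41669 Oaz1 counts over 12 libraries. Oaz1 was 1 of 13 such genes among the 12216 that averaged 37 or more CDS counts in RNA-Seq, and the processed pseudogene Oaz1-ps, at chr17:17345242-17346204, was likewise at 0 on exons. Oaz1 values below therefore come from CDS counts alone, and they may lack reads shared with that copy.

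Counts are given per 1000000 CDS counts after TMM scaling (CPM). On this scale a gene can be followed between libraries of mice A to D, or between input and IP of mice E and F. These sets were scaled apart, so CPM is not compared from one set to the other. Levels of different genes were not compared, because the files give no coding lengths.

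The antizyme gene Oaz1 had a footprint level far below its RNA-Seq level. Its RNA-Seq level was 379 and 394 CPM in control mice A and B and 419 and 408 CPM in AZD mice C and D. Its footprint level was 86.8 and 88.9 CPM in A and B and 108 and 115 CPM in C and D. The RNA-Seq level was at least 3 times the footprint level in each of the 4 mice. The TE test set footprints against RNA-Seq in edgeR, a quasi-likelihood fit across all genes with Benjamini-Hochberg adjustment, and called a gene at an adjusted p below 0.05. Oaz1 was 2.13 lower on the log2 scale in control mice (SE 0.076, adjusted p = 1.575e-12). Reads shared with Oaz1-ps may be missing from either kind of library. Whether they were lost to the same extent in both was not tested, and no exon counts were there to check the ratio.

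Sat1, the catabolic acetyltransferase, had the next lowest TE. Its RNA-Seq level was 44.1, 47.4, 58.0 and 49.8 CPM in mice A to D. Its footprint level was 13.7, 13.6, 17.3 and 14.9 CPM in the same mice, from 58 to 120 counts per library. Each mouse had a lower footprint level than RNA-Seq level, and edgeR gave −1.74 on the log2 scale in controls (SE 0.13, adjusted p = 8.49e-09). Odc1, the enzyme at the head of the pathway, followed with 89.0, 102, 89.4 and 96.3 CPM in RNA-Seq and 44.9, 44.1, 38.0 and 40.0 CPM in footprints. Its TE was −1.10 in controls (SE 0.096, edgeR adjusted p = 4.206e-08). The second antizyme, Oaz2, had 123, 109, 118 and 116 CPM in RNA-Seq and 80.4, 84.4, 96.0 and 79.1 CPM in footprints. Oaz2 was closer to balance than Oaz1, at −0.49 in controls (SE 0.091, edgeR adjusted p = 0.000152).

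The other members had similar footprint and RNA-Seq levels in control mice. Azin1 had 115 and 108 CPM in RNA-Seq of mice A and B and 101 and 96.0 CPM in their footprints, a TE of −0.17 (SE 0.098, edgeR adjusted p = 0.136). Sms had 76.4 and 71.1 CPM in RNA-Seq and 72.7 and 66.9 CPM in footprints, with −0.07 (SE 0.094, edgeR adjusted p = 0.530). Srm had 60.2 and 66.3 CPM in RNA-Seq and 68.4 and 70.9 CPM in footprints, with 0.14 (SE 0.10, edgeR adjusted p = 0.225). Thus Srm was the one member with a footprint level above its RNA-Seq level in both control mice, and that difference did not pass the test.

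**Figure D1:**
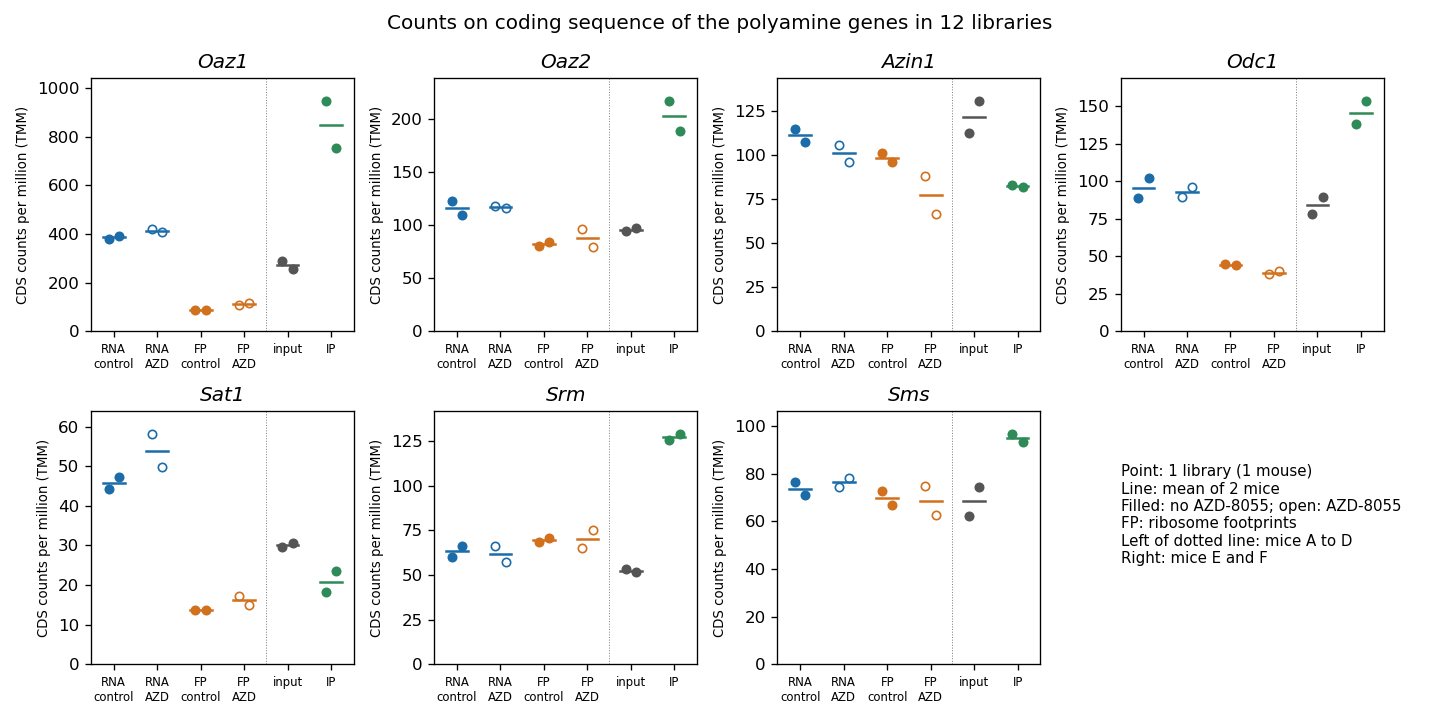
Each panel plots 1 gene, with CPM on CDS on the vertical axis (a scale of its own in each panel, from 0) and the 6 groups on the horizontal axis; points are libraries and lines are means of 2 mice. Footprint points of Oaz1, Sat1 and Odc1 lie far below their RNA-Seq points, and IP points of Oaz1, Oaz2, Srm and Odc1 lie above their input points. Mice A to D and mice E and F were scaled apart, so their points are not compared with each other.

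In control mice, TE was thus lower in 4 of the 7 members tested and higher in none. The test called 73.8% of 11797 genes in either direction and 37.3% lower, so a call alone did not set these members apart. With a fold change over 2 as well, 3 of 7 were called (Oaz1, Sat1 and Odc1), against 30.8% of all genes. The median TE of the members was −0.49, against −0.01 over all genes tested. In AZD mice the test called 5 of 7 lower, the same 4 genes and Azin1, against 70.6% of all genes called in either direction and 36.0% lower. Over 2-fold, Oaz1, Sat1 and Odc1 were again the 3 called, against 29.3%. Azin1 was then at −0.40 (SE 0.11, edgeR adjusted p = 0.0036). Without mouse D the calls fell to 3, Azin1 standing at −0.25 (adjusted p = 0.0832) and Oaz2 at −0.28 (adjusted p = 0.0660), and without mouse C Srm was called at 0.41 (adjusted p = 0.0179). In control mice, a fit paired by mouse (replicate block) also called Azin1, at −0.17 (edgeR adjusted p = 0.0498). The share of all genes that this paired fit called in control mice is not given here.

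The position among all genes was taken from TE per mouse, computed as counts over DESeq2 size factors. For Oaz1 the control mice gave −2.14 and −2.21 on the log2 scale, a mean of −2.18 ± 0.046 (SD, n = 2), at the 2.55 percentile of 10882 genes. Sat1 followed at −1.78 ± 0.11 (4.88 percentile), and the 2 mice of Oaz1 both lay below the 2 mice of Sat1. Odc1 stood at −1.14 ± 0.19 (12.6 percentile) and Oaz2 at −0.53 ± 0.14 (28.3 percentile), again without overlap between mice. Azin1 (−0.21 ± 0.018, 40.2 percentile), Sms (−0.12 ± 0.045, 44.3 percentile) and Srm (0.10 ± 0.093, 54.1 percentile) lay near the median of all genes, 0.016. Their control mice did not overlap from one gene to the next, but the spread between AZD mice, given next, was wider than these steps.

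The same order held at the low end in AZD mice. Oaz1 stood at −1.93 ± 0.063, Sat1 at −1.78 ± 0.025 and Odc1 at −1.29 ± 0.051 (SD, n = 2), with no overlap between mice. Above them the mice overlapped, with Oaz2 at −0.46 ± 0.21 and Azin1 at −0.44 ± 0.21. Sms at −0.20 ± 0.25 and Srm at 0.15 ± 0.27 overlapped as well. Differences in TE between genes were not tested. A count over the whole CDS sums ribosomes before and after the antizyme frameshift site, so these values are of total footprints and do not measure frameshifting.

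**Figure D2:**
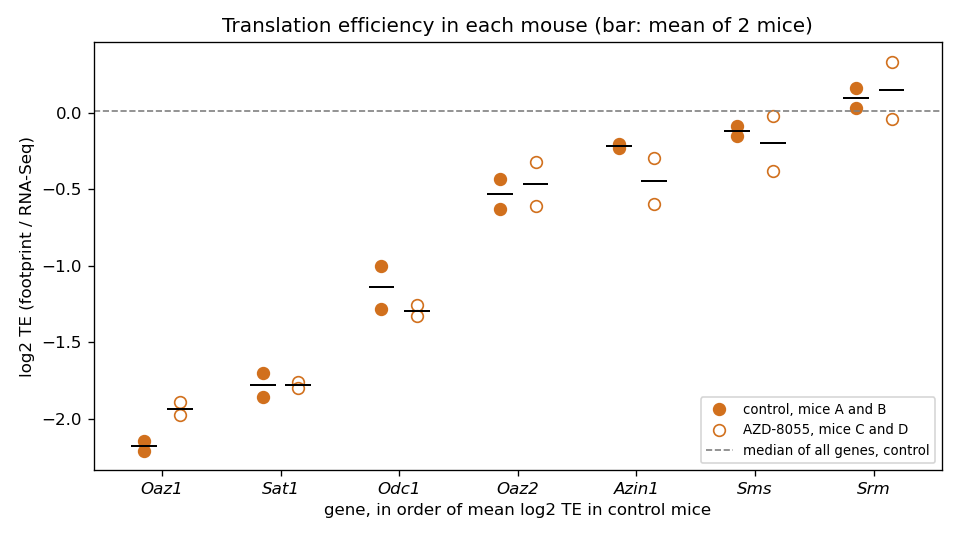
Log2 TE (vertical axis) of the 7 members (horizontal axis) in each control mouse (filled) and AZD mouse (open), with the mean of 2 mice as a bar and the median of all genes as a dashed line. The points of Oaz1, Sat1 and Odc1 are the lowest in all 4 mice, down to −2.21, while Srm lies near the dashed line.

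The TE of several members depended on which RNA-Seq counts were used. With exon counts in place of CDS counts for RNA-Seq, edgeR called Azin1 at −0.79 (adjusted p = 1.756e-06), Sms at −0.80 (adjusted p = 1.161e-06) and Srm at 0.61 (adjusted p = 7.541e-05) in control mice, and Oaz2 moved to −1.15 and Odc1 to −0.57. That fit called 74.4% of 12370 genes. Exon counts include untranslated regions, where footprints were not counted, so this scale also carries the length of those regions. The share outside the CDS is the part of exon counts not counted on the CDS, and reads that cross a CDS edge may be in it. In control RNA-Seq, 62.6% and 66.1% of Oaz2 exon counts lay outside the CDS, 63.5% and 63.7% of those of Azin1, and 67.3% and 64.8% of those of Sms. The shares were lower for Odc1 (19.9% and 17.3%), Srm (20.4% and 23.5%) and Sat1 (38.3% and 34.7%), beside medians over all genes of 38.1% and 38.0%. Oaz1 had no exon counts to compare.

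The next question was whether AZD-8055 changed these genes within 1 h. In the test of the TE change, which set footprints against RNA-Seq in AZD mice and in controls in 1 fit, 0 of 7 members passed, against 0.865% of all genes. Only Oaz1 had an unadjusted p below 0.05, and DESeq2 called none of the 7. The TE of Oaz1 was −2.14 and −2.21 in controls and −1.98 and −1.89 in AZD mice, groups that did not overlap. The edgeR difference was 0.25 (SE 0.11, adjusted p = 0.67). Azin1 had −0.20 and −0.23 in controls and −0.29 and −0.59 in AZD mice, and the difference was −0.23 (SE 0.15, edgeR adjusted p = 0.816). Odc1 differed by −0.14 (SE 0.14), Sms by −0.09 (SE 0.14), Oaz2 by 0.07 (SE 0.13), Srm by 0.06 (SE 0.15) and Sat1 by −0.01 (SE 0.21). With 2 mice a group the SEs were 0.11 to 0.21, so changes of that size were within the error.

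Footprints alone gave 1 call among the members. Oaz1 footprints rose from 86.8 and 88.9 CPM to 108 and 115 CPM, a change of 0.35 (SE 0.082, edgeR adjusted p = 0.0446), with no overlap between the groups. That is 1 of 7 members, against 1.52% of all genes called and 0.297% called higher. With a fold change over 2 as well, 0 of 7 members were called, against 0.322% of all genes. The call rested on all 4 mice. Without mouse A the adjusted p was 0.395, without B 0.157, without C 0.0967 and without D 0.438, and with no filter on low counts it was 0.107, while the change stayed between 0.30 and 0.39. Ribosomal protein footprints fell in 72 of the 74 genes tested, with a median of −0.95, in these same footprint libraries. The scaling sets each gene against all others, and whether that fall bears on the Oaz1 change was not tested.

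Azin1, whose product opposes antizyme, had lower footprint levels in the AZD mice. It had 101 and 96.0 CPM in controls and 87.9 and 66.6 CPM in AZD mice, with no overlap and a change of −0.37 (SE 0.11), which did not pass (edgeR adjusted p = 0.126). The change depended on which AZD mouse was kept. Without mouse C the change was −0.57 (adjusted p = 0.0175), and without mouse D it was −0.17 (adjusted p = 0.747). With no filter on low counts Azin1 passed at −0.40 (adjusted p = 0.0175). Of the other members, Sat1 differed by 0.23 (SE 0.17), Odc1 by −0.19 (SE 0.12), Oaz2 by 0.08 (SE 0.10), Sms by −0.04 (SE 0.10) and Srm by 0.02 (SE 0.11).

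RNA-Seq gave 0 calls among the 7 members, against 0.0932% of all genes. DESeq2 also called none of them. Sat1 had the largest difference, 44.1 and 47.4 CPM in controls against 58.0 and 49.8 CPM in AZD mice, or 0.23 (SE 0.10, edgeR adjusted p = 0.679), and it alone had an unadjusted p below 0.05. The rest lay between −0.14 (Azin1) and 0.10 (Oaz1). The tests of TE, footprint and RNA changes share the same 8 libraries.

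**Figure D3:**
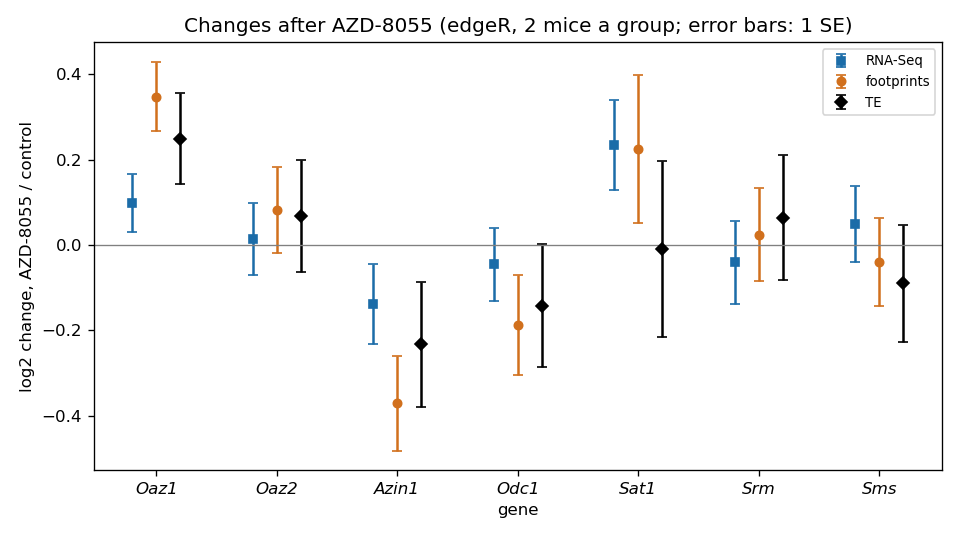
Log2 change from control to AZD mice (vertical axis) in RNA-Seq, footprints and TE for each member (horizontal axis), from edgeR with 2 mice a group and bars of 1 SE. The footprint point of Oaz1, at 0.35, is the 1 value called, and that of Azin1 is at −0.37.

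The RiboTag comparison asked which messages were on tagged polysomes of Camk2a-Cre cells relative to the whole lysate. All 7 members tested differed between IP and input, 5 higher and 2 lower, where the test called 75.5% of 12211 genes, 36.5% higher and 39.0% lower. The change was over 2-fold in 3 of the 7, against 46.5% of all genes. The median of the members was 0.79, against −0.07 over all genes tested.

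Both antizymes and the tested genes of putrescine and spermidine synthesis, Odc1 and Srm, were higher in IP. Oaz1 rose from 291 and 256 CPM in the input of mice E and F to 946 and 753 CPM in IP, by 1.63 (SE 0.14, edgeR adjusted p = 1.014e-05). Srm rose from 53.3 and 51.4 CPM to 126 and 129 CPM, by 1.27 (SE 0.12, edgeR adjusted p = 1.66e-05). The input and IP libraries of these genes did not overlap. Oaz2 rose from 94.0 and 97.0 CPM to 216 and 188 CPM, by 1.08 (SE 0.12, edgeR adjusted p = 5.521e-05). Odc1 rose from 78.2 and 89.6 CPM to 139 and 153 CPM, by 0.79 (SE 0.13, edgeR adjusted p = 0.000456). Sms rose less, from 62.4 and 74.3 CPM to 96.5 and 93.3 CPM, by 0.47 (SE 0.13, edgeR adjusted p = 0.0098). With library totals alone as the scale the Sms difference was 0.03 (adjusted p = 0.852).

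The antizyme inhibitor and the acetyltransferase were lower in IP. Azin1 fell from 113 and 131 CPM in input to 83.1 and 82.2 CPM in IP, a change of −0.56 (SE 0.13, edgeR adjusted p = 0.0031). Sat1 fell from 29.5 and 30.7 CPM to 18.2 and 23.6 CPM, a change of −0.53 (SE 0.17, edgeR adjusted p = 0.0208), and DESeq2 did not call it (adjusted p = 0.0739). Without mouse E the Sat1 difference was −0.35 and without mouse F it was −0.71. Neither gene overlapped between input and IP. Per mouse, over DESeq2 size factors, log2 IP over input was 1.82 and 1.69 for Oaz1, at the 93.3 percentile of 12211 genes, and 1.35 and 1.46 for Srm, at the 86.7 percentile. It was −0.32 and −0.53 for Azin1 and −0.58 and −0.24 for Sat1, at the 36.9 and 37.2 percentiles.

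**Figure D4:**
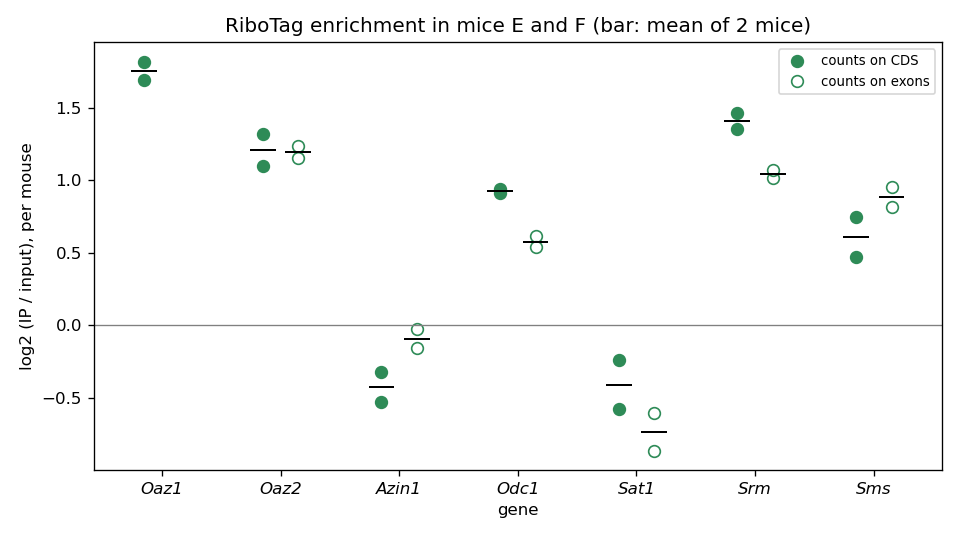
Log2 of IP over input in mice E and F (points) and their mean (bar), over DESeq2 size factors, from CDS counts (filled) and exon counts (open), for the 7 members on the horizontal axis. Azin1 and Sat1 lie below 0 and the other members above it, and Oaz1 has no exon value.

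Cell type markers moved with the IP. Summed markers of excitatory neurons were 4108 to 4391 CPM in input and 7874 to 8439 CPM in IP, with 4 of 6 genes higher and 2 lower. Markers of inhibitory neurons went from 693–713 to 137–189 CPM (4 of 4 lower), those of astrocytes from 666–755 to 81.9–93.4 CPM (5 of 5 lower) and those of oligodendrocytes from 1494–1598 to 154–156 CPM (4 of 4 lower). The other lists were lower as well, oligodendrocyte precursors at 78.8–79.3 and 5.04–5.24 CPM (2 of 2), microglia at 212–225 and 19.9–22.1 CPM (3 of 4) and endothelial cells at 118–125 and 5.86–8.44 CPM (3 of 3). Ribosomal protein genes, which are on none of these lists, were higher in IP in 74 of 74 tested, against 36.5% of all genes. Their median change was 1.35 on the log2 scale. The part of cell types or of such a shared rise in the values of the polyamine genes was not tested.

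The share of exon counts outside the CDS also moved with the IP. For Azin1 it was 61.7% and 61.9% in input and 76.9% and 79.4% in IP. For Sms it was 63.5% and 64.5% in input and 76.6% and 80.5% in IP. Oaz2 rose from 63.1% and 62.2% to 71.1% and 74.6%. Sat1 rose from 36.8% and 37.1% to 43.0% and 43.4%, Srm from 20.5% and 20.3% to 25.7% and 27.2% and Odc1 from 16.3% and 15.2% to 22.3% and 23.2%. All 6 members with exon counts were thus higher in both IP libraries than in both input libraries, as was the median over all genes. The share of all genes that did so was not counted. Over all genes the median share was 34.7% and 36.1% in input and 50.2% and 53.8% in IP.

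These shares bear on the size of the differences between IP and input. With exon counts Azin1 was at −0.21 and no longer called (edgeR adjusted p = 0.0897), Sat1 was at −0.84 (adjusted p = 0.0015), Odc1 at 0.46 (adjusted p = 0.0055) and Sms at 0.76 (adjusted p = 0.0012). The test called 69.4% of all genes with exon counts. With only the counts outside the CDS, an alternative added after the data were seen, all 6 members kept the direction of their CDS values, from −1.12 for Sat1 to 0.80 for Srm.

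**Figure D5:**
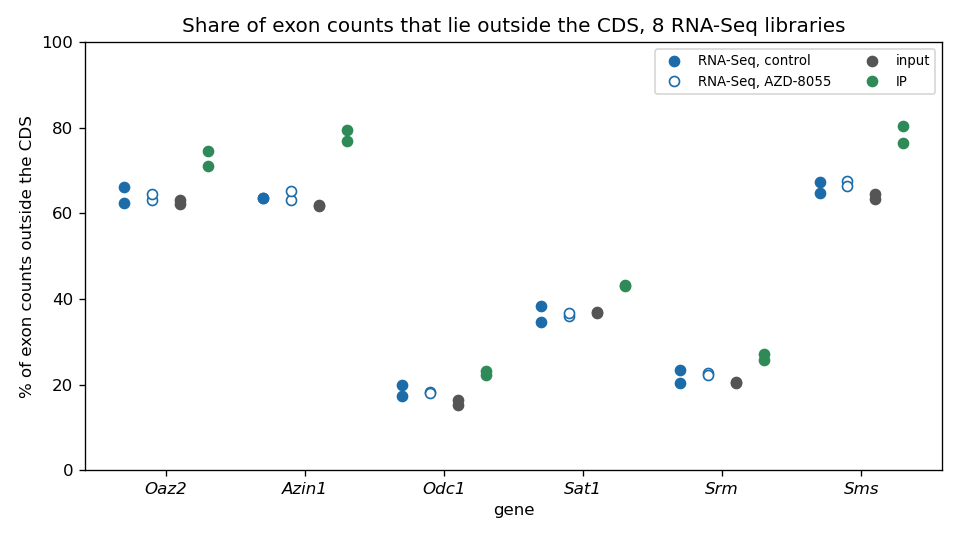
Percent of a gene's exon counts that were not counted on its CDS (vertical axis, 0 to 100) in the 8 RNA-Seq libraries, 1 point a library, for the 6 members with exon counts. The IP points of each gene lie above its input points.

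The rest of the pathway was read through a list of 31 symbols, of which 29 were in the CDS table and 22 had enough counts in the matched libraries. In control mice TE was higher for 8, lower for 7 and not called for 7, where the test called 73.8% of all genes and 37.3% lower, and AZD-8055 gave 0 calls of 22 in TE, in footprints and in RNA-Seq. Unadjusted p-values below 0.05 in edgeR numbered 0 for TE, 4 for footprints and 3 for RNA-Seq. DESeq2 called 0 of 22 for TE, 0 of the 21 with an adjusted p for RNA-Seq and 1 of only 7 with an adjusted p for footprints, Atp13a2, which edgeR had at 0.35 (SE 0.091, adjusted p = 0.0809).

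From CDS counts, footprints and RNA-Seq of control mice differed by more than 2-fold in 4 of these 22 genes, against 30.8% of all genes called at that size. Eif5a2, a form of the translation factor whose hypusine residue is built from spermidine, had the highest TE of the list at 2.29 (SE 0.18), and Slc7a1, a transporter of arginine, was at 1.85 (SE 0.16). The lowest were Smox, spermine oxidase, at −1.64 (SE 0.12), and Atp13a2, a lysosomal polyamine exporter, at −1.61 (SE 0.085). Smox and Sat1 are both enzymes of polyamine breakdown, and the others on that list, Paox and Sat2, were not called. These TE values depended on the RNA-Seq counts used. With exon counts Eif5a2 turned to −0.79 (edgeR adjusted p = 4.038e-06), Slc7a1 was at −0.10 and not called (adjusted p = 0.341), and Smox and Atp13a2 were at −0.92 and −0.88. Arg2, an arginase, was not called with CDS counts (0.49) and stood at 1.56 with exon counts (adjusted p = 0.000131).

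In IP against input, 24 genes of the list were tested from CDS counts, 12 higher and 5 lower, where the test called 36.5% of all genes higher and 39.0% lower. The enzymes that make hypusine were among the highest, with Dohh at 2.00 (SE 0.12) and Dhps at 1.54 (SE 0.12), and their substrate Eif5a was at 1.37 (SE 0.13). With exon counts these were at 1.57, 1.03 and 1.13. Eif5a2 was at −2.16 (SE 0.27) with CDS counts and at −0.17 with exon counts, where it was not called (edgeR adjusted p = 0.335).

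The antizyme inhibitor 2 gene, listed under its older symbol Adc, was at 1.30 (SE 0.13), opposite in sign to Azin1, and at 0.95 with exon counts. Oaz3, the third antizyme, was at 1.11 (SE 0.25) with CDS counts only. It was at 0.38 with exon counts (edgeR adjusted p = 0.163) and at −0.68 with counts outside the CDS (adjusted p = 0.0652), neither of them called. Agmat, Mat2b and Apip were at 1.34, 1.32 and 1.26, and at 0.91, 1.13 and 0.77 with exon counts. The transporters Slc7a1 and Atp13a3 were at −2.76 and −2.17, and at −0.52 and −0.73 with exon counts, both still called. Mat2a, a methionine adenosyltransferase, was at −1.28, and at −0.89 with exon counts.

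Genes with the pattern closest to each member were found by Euclidean distance over 6 values, the log2 TE of mice A to D and the log2 IP over input of mice E and F, each relative to the median of 8501 genes. The closest to Oaz1 was Abhd8, at a distance of 0.205, and the next was Stard10 at 0.436. Odc1 was nearest to Klhl2 (0.153) and Sphk2 (0.184), Sat1 to Lmtk3 (0.264) and Gtf3c2 (0.273), and Oaz2 to Nell2 (0.228) and Srp68 (0.231). Azin1 was nearest to Satb1 (0.209) and Gclc (0.247), Srm to Sae1 (0.273) and Med10 (0.284), and Sms to Cacna2d3 (0.257) and Me1 (0.259). No member was among the 2 nearest genes of another.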

How the data were processed

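RNA-Seq and ribosome footprint libraries were compared as counts per gene. The authors deposited raw counts for each library, with a CDS table of 12 libraries and an exon table of the 8 that are RNA-Seq. For footprints they trimmed reads, clipped poly(A) stretches, removed rRNA reads with Bowtie2, aligned the rest with TopHat2 and counted unique reads with HTSeq in its strict intersection mode, in which a read that crosses the edge of a CDS is left out of that CDS. Per the labels the build was mm10, and versions are not given in the sources used here.

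The 7 members with counts were tested with edgeR 4.0.16 (R 4.3.3; TMM, quasi-likelihood F-test, Benjamini-Hochberg adjustment over all genes that averaged 37 or more counts). 1 fit held the 4 groups of mice A to D and another held input and IP. The study used RiboDiff for the TE change, which was not run here. TE and enrichment per mouse were ratios of counts over DESeq2 1.42.0 size factors, TE only where the 2 mice together had 75 or more counts in RNA-Seq and in footprints. Tests were checked on simulated counts that were drawn independently for each library. That check does not cover the correlation between libraries of 1 mouse, or changes as small as those of the members after AZD-8055. CPM values used TMM factors of 0.855 to 1.17, computed apart for mice A to D and for mice E and F.

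Libraries with the same letter come from 1 animal. Over 8501 genes, log2 differences between the 2 animals of a group correlated from one kind of library to the other, at 0.171 for A against B, 0.155 for C against D and 0.511 for E against F. The mouse was therefore a block in an alternative fit. Other alternatives were DESeq2, size factors or total counts in place of TMM, no filter on low counts, exon counts for RNA-Seq, a fold change over 2 and leaving out each mouse. Replicates of a group differed by more than sampling noise (chi-square per degree of freedom 2.61 to 9.53). Each condition had 2 mice, so p-values come only from models across all genes. Where groups of 2 libraries are said not to overlap, the share of all genes that did likewise was not counted.

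The members and lists were chosen with earlier results of these data known. The genes named are the 8 members and, of the pathway list, those called and changed over 2-fold in any comparison. Paox, Sat2, Arg2 and the DESeq2 call of Atp13a2 are named outside this rule, after their values were seen. Levels per coding length were not computed for lack of coding lengths. Transcript starts come from a reference set of promoter windows (GRCm38.p6). Figures were drawn in Python 3.11.15 with pandas 2.3.3 and matplotlib 3.10.9.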

Additional observations from a re-analysis of the deposited data

How the results depend on the processing

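The low TE of Oaz1, Sat1 and Odc1 in control and AZD mice, and the higher IP levels of Oaz1, Oaz2, Srm and Odc1, kept their direction and their call in every alternative that gave a test, apart from Odc1 in IP where a fold change over 2 was required, with Oaz1 at −2.27 to −2.12 in control TE. Exon counts gave no value for Oaz1, which has none in RNA-Seq. Other results rested on the settings. With library totals in place of TMM the median of all genes tested moved to −0.15 in control TE and to −0.51 in IP against input, and of the IP calls 32.5% were higher (3022 higher, 6272 lower) in place of 48.3% (4455 higher, 4766 lower). On that scale Azin1 (−0.31, adjusted p = 0.0084) and Sms (−0.21, adjusted p = 0.0494) were called in control TE, while Srm stood at −0.00048 in control TE, Oaz2 at −0.011 in the RNA change and Sat1 at 0.033 in the TE change. DESeq2 put Sat1 at 0.0012 in the TE change. With no filter on low counts Srm footprints changed by −0.011, Azin1 was called in control TE at −0.25 and Sms in AZD TE at −0.28, and calls over all genes rose from 11 to 87 for the RNA change (17 with DESeq2) and from 179 to 342 for footprints. With a fold change over 2 required, 3 members were called in AZD TE, 3 in IP and 0 in footprints. The cause of these differences was not tested.

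The median member stood at −0.53 in log2 TE per control mouse, at −0.63 with library totals and at −0.88 with exon counts, and at 0.93 in IP over input, with 0.36 and 0.73 in those settings. Leaving out 1 control mouse gave −0.63 to −0.43. Leaving out 1 of 4 mice gave 3 to 6 members called in AZD TE, 0 to 1 in footprints, and 4 in each case in control TE. Over all genes these fits called 7046 to 8239 in AZD TE, 99 to 214 in footprints and 7076 to 8752 in control TE. The values that crossed 0 when a mouse was left out were in no case called. These were the RNA changes of Odc1 (−0.15 to 0.062), Srm (−0.16 to 0.058), Oaz2 (−0.068 to 0.099) and Sms (−0.0019 to 0.10), the TE changes of Srm (−0.15 to 0.27), Oaz2 (−0.058 to 0.20), Sat1 (−0.062 to 0.044) and Sms (−0.24 to 0.080), the footprint changes of Srm (−0.090 to 0.11), Oaz2 (−0.056 to 0.23) and Sms (−0.17 to 0.092), and Sms in AZD TE (−0.30 to 0.026). Leaving out mouse E or F left 1 mouse, so the IP values then had no test.

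The fit paired by mouse (replicate block) called 5 members in control TE, 5 in AZD TE, 0 in the TE change and 7 in IP against input. Over all genes it called 8582 of 11797 in AZD TE, 147 in the TE change and 10010 of 12211 in IP. The unpaired fit called fewer in each, 8325, 102 and 9221. In control TE the unpaired fit had called 73.8% of all genes, and the share called by the paired fit is not given here. The paired fit changed no call beyond that of Azin1 in control TE (−0.17, edgeR adjusted p = 0.0498). RNA and footprint changes could not be blocked, since each mouse has 1 library of a kind. Among the footprint values, those of Sat1 rest on 58 to 120 counts per library. Levels per coding length were not run.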
